A study of Mus musculus with 48 samples.

Results

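Libraries labelled astrocyte from the olfactory bulb and the hippocampus of newborn mice were compared at postnatal day 1 (P1). The comparison used 6 RNA-seq libraries of the 48 in the series, 3 from olfactory bulb P1 and 3 from hippocampus P1, chosen by their labels for tissue and age. The series asks how inhibitory input and the GABA-B receptor of glia act on astrocyte shape, and profiles astrocytes of the olfactory bulb, cortex and hippocampus at P1, P7 and P14, beside P28 animals with a conditional knockout of Gabbr1 or its control. The labels of both P1 groups give the cell type astrocyte, the tissue and the age, with no strain, sex, genotype, transgene or treatment, and they do not say how astrocytes were separated from other cells of the dissociated tissue. They also do not say whether the 3 libraries of a group came from separate animals, so the p-values below measure only the spread between these libraries. Libraries of the same region at P7 and P14, and of cortex at P1, with the same kind of labels, serve as further values.

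Astrocytes of the forebrain arise from radial glia, which first make neurons and then turn to glia around birth, and which keep the transcription factor code of the part of the neural tube they line. The hippocampus forms from the medial pallium, next to the cortical hem, a source of Wnt and BMP signals. The olfactory bulb is supplied for life with interneurons born in the ventral forebrain, whose precursors express Dlx genes and migrate into the bulb as neuroblasts. Newborn astrocytes still divide and carry low levels of many genes of mature astrocytes, such as glutamate transporters, aquaporin and connexins.

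Total reads per library ran from 5098757 to 9062118, of which the ribosomal RNA precursor Rn45s took 20.8% to 27.3%, and the remaining reads were scaled together by the median ratio of the 6 libraries. The deposited tables were scaled separately for each region by the authors, and the values here are normalized read counts rebuilt on 1 common scale. Correlations across genes were 0.975 to 0.978 within the olfactory bulb, 0.954 to 0.965 within the hippocampus and 0.867 to 0.889 between regions, and genes are not independent points. The first principal component held 71.3% of the variance and separated the regions, and the second (10.8%) separated hippocampus libraries 2 and 3. Ddx3y, a gene of the Y chromosome, had reads in olfactory bulb library 2 and hippocampus library 1 and none in the other 4.

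The label astrocyte was checked on markers. All 25 members of a list of astrocyte genes had reads, 23 of them enough to be tested, and their summed level was 19676 to 25905 in the olfactory bulb libraries and 47541 to 58961 in those of hippocampus. Aldh1l1, a folate enzyme used as a marker of the whole astrocyte lineage, was read at 422, 450.2 and 391 in the olfactory bulb libraries and at 386, 484 and 399 in those of hippocampus. These levels overlapped (log2 difference 0.00, SE 0.14, adjusted p = 0.999). Neuronal markers were read in the same libraries: the summed level of 12 pan-neuronal genes was 40840.3 to 49906 in the olfactory bulb and 19447 to 24373 in the hippocampus, so neither group was free of neuronal transcripts and the olfactory bulb held more of them. In each olfactory bulb library the pan-neuronal sum exceeded the astrocyte sum, and in each hippocampus library it was lower. Dcx alone, with counts given below, made up most of the pan-neuronal sum in each olfactory bulb library. Without Dcx, that sum lay below the astrocyte sum in every olfactory bulb library too. The 2 lists differ in length and genes, and the name astrocyte used here is that of the labels. In whole-population RNA like this, fewer cells of a type and less RNA per cell cannot be told apart. The part of these neuronal transcripts in the regional differences below was not tested, and their values stand beside the gene groups they move with.

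Each gene with a mean normalized read count of at least 10 was tested with limma on log2(normalized read count + 1), and a gene was called where its Benjamini-Hochberg adjusted p was under 0.05. Differences are given as log2 of olfactory bulb minus hippocampus with the standard error (SE). On this scale the change of genes with few reads is understated. Of 12706 genes tested, 4106 (32.3%) were called. Of these, 1923 (15.1%) were higher in the olfactory bulb and 2183 (17.2%) were higher in the hippocampus. At least 2-fold differences were reached by 1981 called genes (15.6%), 696 of them higher in the olfactory bulb and 1285 in the hippocampus. At least 8-fold differences were reached by 142 genes higher in the olfactory bulb (1.12%) and 158 higher in the hippocampus (1.24%). The 3 libraries of one region did not overlap those of the other in 5730 genes (45.1%), of which 4015 were also called. The median log2 difference over all genes tested was 0.03. The medians of the gene lists below can be read against it, and their counts against the shares of 15.1% and 17.2%.

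**Figure D1:**
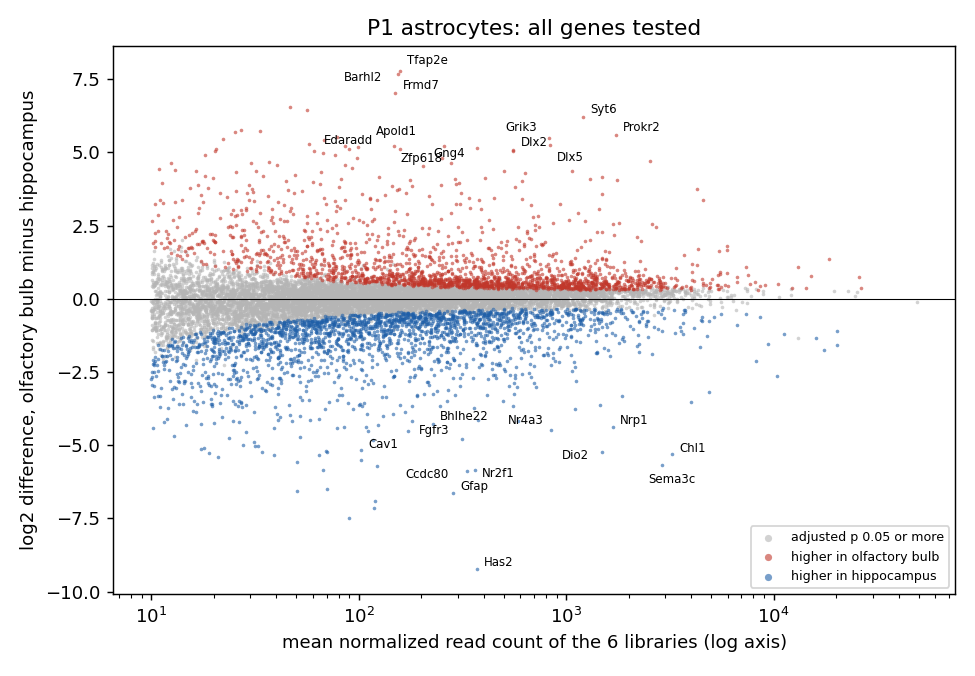
Log2 difference (olfactory bulb minus hippocampus) of all 12706 genes tested against the mean normalized read count of the 6 libraries (log axis), 1 point per gene. Red points are the 1923 genes called higher in the olfactory bulb, blue points the 2183 called higher in the hippocampus and grey points the rest; the labelled genes are the 24 with the largest differences at or above the median read count.

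The 12 genes with the largest difference toward the olfactory bulb were Tfap2e, Barhl2, Frmd7, Syt6, Prokr2, Grik3, Dlx5, Apold1, Zfp618, Gng4, Edaradd and Dlx2, each with a mean count at or above 132, the median of the genes tested. The rule that named them asked for groups that do not overlap. Tfap2e, a transcription factor of the AP-2 family known from the olfactory system, was read at 277, 341 and 327 in the 3 olfactory bulb libraries and at 0, 1.93 and 0 in those of hippocampus. The 2 reads of Tfap2e in all hippocampus libraries against 942 give a ratio of 489.9-fold with a 95% counting interval of 135 to 4052. Barhl2, a homeodomain factor, was at 263, 388 and 279 against 0.75, 0.97 and 0, and its 933 and 2 reads give a ratio of 485-fold (interval 134 to 4013). Both genes were thus close to the detection limit in the hippocampus. These intervals are exact and cover counting error only.

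Prokr2 encodes a receptor for prokineticins, which attract neuroblasts into the bulb. It was read at 4110.2, 3071 and 3002 in the olfactory bulb and at 65.4, 80.1 and 60.1 in the hippocampus, a log2 difference of 5.61, SE 0.16 (adjusted p = 2.79e-11). The lowest olfactory bulb library, at 3002, lay far above the highest of hippocampus, at 80.1. Syt6, a synaptotagmin of the family of calcium-binding membrane trafficking proteins, was at 2952, 1975 and 2243 against 27.1, 21.2 and 51.1 (log2 difference 6.21, SE 0.26, adjusted p = 9.71e-10). Grik3, a subunit of kainate-type glutamate receptors, was at 1877, 1394 and 1579 against 37.6, 22.2 and 51.1 (log2 difference 5.48, SE 0.24, adjusted p = 1.59e-09). The spread within each region was small beside the gap between them for these 3 genes, which the rule chose for large differences without overlap. The other members of the group were the FERM domain protein gene Frmd7 (log2 difference 7.03), the apolipoprotein L domain gene Apold1 (5.22), the zinc finger gene Zfp618 (5.21), the G protein gamma subunit Gng4 (5.14) and Edaradd (5.11), an adaptor of the ectodysplasin receptor.

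**Figure D2:**
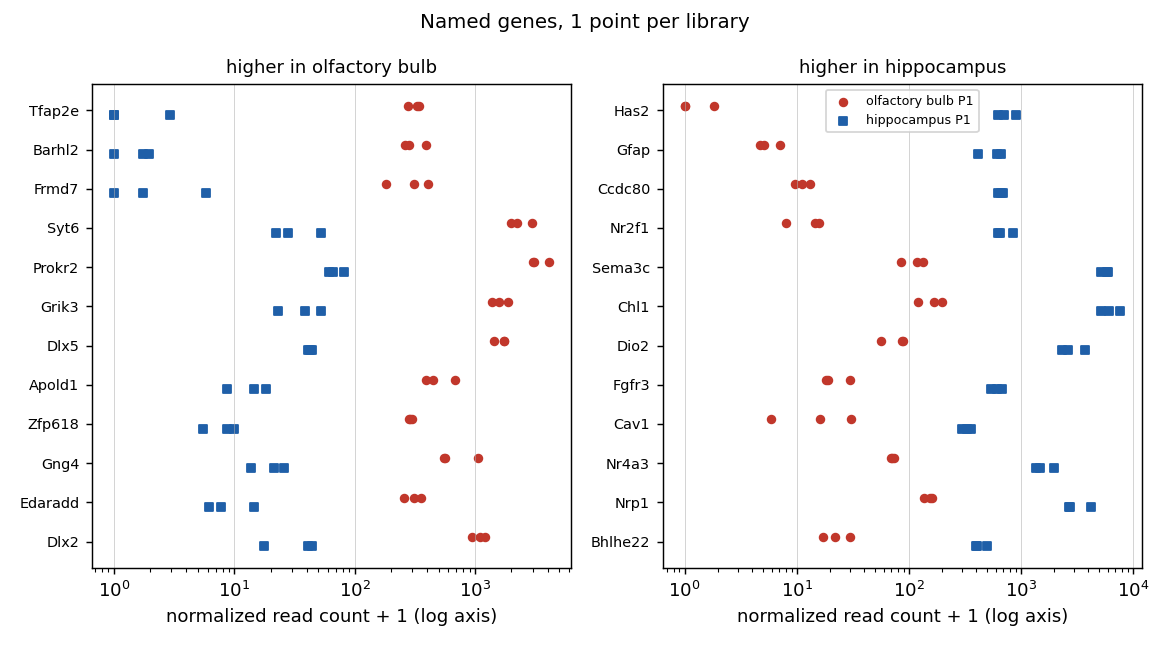
Normalized read count + 1 (log axis) of the 24 named genes, 1 point per library, red circles for olfactory bulb P1 and blue squares for hippocampus P1. Left, the 12 genes higher in the olfactory bulb; right, the 12 higher in the hippocampus; the rule that chose the genes asked that the 3 libraries of one region lie apart from the 3 of the other.

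The factors that pattern the ventral forebrain and its bulb interneurons were higher in the olfactory bulb as a group. Of 17 tested members of that list, 15 were higher in the olfactory bulb, 1 was higher in the hippocampus (0 without olfactory bulb library 1 or 3) and 1 was not called, and the median log2 difference was 3.74. Dlx5, a homeodomain factor of GABAergic precursors, was read at 1733, 1440.2 and 1725 in the olfactory bulb and at 39.8, 41.5 and 43.5 in the hippocampus (log2 difference 5.26, SE 0.14, adjusted p = 2.79e-11). Dlx2 was at 1209.9, 939.7 and 1092 against 42.9, 39.6 and 16.6 (5.09, SE 0.28, adjusted p = 1.11e-08) and Dlx1 at 2619, 1631 and 1856 against 115, 77.2 and 101 (4.36, SE 0.19). The regional means of these genes were 39.2-fold, 32.7-fold and 20.8-fold apart. The zinc finger factors of bulb interneurons Sp8 (log2 difference 4.30), Sp9 (5.05) and Tshz1 (3.06), the homeodomain cofactors Pbx3 (4.70), Meis2 (1.65) and the ETS factor Etv1 (3.74) differed in the same direction. Dlx6 also did (4.58), but it overlaps an antisense transcript in the same list, and whether reads were counted by strand is not given in the sources used here.

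Markers of bulb interneurons and their neuroblasts moved with these factors, in 14 of 15 tested members (median 3.43), with a summed level of 90539 to 101417 in the olfactory bulb libraries and 38962 to 56259 in those of hippocampus. Of these members, 4 (Sp8, Sp9, Etv1 and the Dlx6 antisense transcript) are also in the factor list. Gad2, one of the enzymes that make GABA, was read at 3305, 2997 and 3685 in the olfactory bulb and 276, 186 and 157 in the hippocampus (4.04, SE 0.18, adjusted p = 1.59e-09). Dcx, a microtubule protein of migrating neuroblasts, was at 30488, 23524 and 25701 against 8912, 13418 and 9106 (1.36, SE 0.16, adjusted p = 2.26e-05), so it was abundant in both regions and 2.54-fold higher in the olfactory bulb. Robo2, a receptor for Slit proteins that repel neuroblasts, was at 9034, 7851 and 8093 against 748, 899.9 and 765 (3.37, SE 0.12). The defining markers of mature bulb interneurons were not all present: Th and Trh had too few reads to be tested. Whether the reads of the Dlx, Sp8 and Pbx3 group came from astrocytes or from neuroblasts in the samples cannot be told apart from these libraries.

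The 250 bases before the start of Syt6, one of the genes of the olfactory bulb group, and of Dcx, the neuroblast gene, each hold the homeodomain core TAATTA. The nuclear receptor half-site AGGTCA, bound by factors such as the Nr2f1 product, is in the window of Gfap, from the hippocampus group, and also in that of Syt6. They are shown because Dlx and Barhl2 homeodomain factors and Nr2f1 are among the genes with the largest regional differences. The sequences are RefSeq promoters of build GRCm38.p6, 5′ to 3′ on the gene's strand, with both motifs on either strand in capitals. Syt6 lies at chr3:103574995-103575244 on the plus strand, Dcx at chrX:143933220-143933469 on the minus strand and Gfap at chr11:102897201-102897450 on the minus strand, each ending at the base before the annotated start.
Syt6: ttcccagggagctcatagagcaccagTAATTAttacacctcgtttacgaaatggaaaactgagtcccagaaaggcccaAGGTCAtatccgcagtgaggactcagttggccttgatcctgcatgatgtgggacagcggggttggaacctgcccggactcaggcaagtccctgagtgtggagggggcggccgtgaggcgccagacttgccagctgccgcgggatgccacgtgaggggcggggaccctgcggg
Dcx: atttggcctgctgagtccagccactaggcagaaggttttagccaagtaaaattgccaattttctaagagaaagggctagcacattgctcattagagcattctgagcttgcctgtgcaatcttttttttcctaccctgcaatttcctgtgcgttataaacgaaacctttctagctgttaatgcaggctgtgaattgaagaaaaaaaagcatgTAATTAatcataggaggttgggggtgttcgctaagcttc
Gfap: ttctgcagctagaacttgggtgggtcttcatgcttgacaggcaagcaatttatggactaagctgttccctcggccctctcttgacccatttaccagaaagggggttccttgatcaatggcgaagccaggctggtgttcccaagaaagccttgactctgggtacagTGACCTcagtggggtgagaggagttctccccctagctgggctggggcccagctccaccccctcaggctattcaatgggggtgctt
TAATTA begins 224 bases before the start in Syt6 and 39 bases before it in Dcx. AGGTCA begins 172 bases before the start in Syt6 and 85 bases before it in Gfap, where it lies on the opposite strand. TAATTA was in 9 of 150 windows (6.0%) of genes at least 8-fold higher in the olfactory bulb, in 5 of 170 (2.94%) of those at least 8-fold higher in the hippocampus and in 305 of 12398 (2.46%) of all genes tested. Over all genes called in each direction, at any fold, it was in 59 of 2001 windows (2.95%) and 48 of 2144 (2.24%), near the share of all genes. AGGTCA was in 11 of 150 (7.33%), 17 of 170 (10%) and 1256 of 12398 (10.1%). In all, 8 motifs were searched on both strands of these windows, the others being TTGGCA for nuclear factor I, the E-box motifs CATCTG (proneural) and CAGCTG (general), TATAAA for the TATA box, TGACTCA for AP-1 and GCCTCAGG for AP-2. The proneural E-box CATCTG was in 15 windows of the first set (10%), 29 of the second (17.1%) and 9.91% of all. The AP-1 motif TGACTCA was in 4 (2.67%), 11 (6.47%) and 2.93%. Shares of the other 4 motifs in the first set, the second set and all genes were 13.3%, 14.7% and 9.75% for TTGGCA and 14.7%, 13.5% and 11.9% for CAGCTG. They were 8.67%, 10.6% and 6.28% for TATAAA and 1.33%, 0.588% and 2.18% for GCCTCAGG. Windows were matched by symbol for 9638 of the 12706 genes, a gene can have several, and a match is a description of the sequence, not of binding.

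The 12 genes with the largest difference toward the hippocampus were Has2, Gfap, Ccdc80, Nr2f1, Sema3c, Chl1, Dio2, Fgfr3, Cav1, Nr4a3, Nrp1 and Bhlhe22, by the same rule. Has2, a synthase of the matrix sugar hyaluronan, was read at 704, 898 and 631 in the hippocampus and at 0.82, 0 and 0 in the olfactory bulb. With 2360 reads against 1, the ratio was 2269-fold, but its 95% counting interval ran from 407 to 89646. Gfap, the intermediate filament of mature and reactive astrocytes, was at 664, 411 and 618 in the hippocampus and at 4.09, 6.03 and 3.70 in the olfactory bulb (-6.65, SE 0.27, adjusted p = 8.68e-10). Gfap was thus close to its detection limit in the olfactory bulb at this age, whereas Aldh1l1 was not. Fgfr3, an FGF receptor of astrocyte precursors, was at 613, 675 and 541 against 28.6, 18.1 and 17.3 (-4.80, SE 0.21, adjusted p = 1.64e-09).

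Sema3c, a secreted semaphorin that steers axons, was read at 5252, 5869 and 5984 in the hippocampus and at 132, 117 and 85.2 in the olfactory bulb (-5.69, SE 0.15, adjusted p = 2.79e-11). Its co-receptor Nrp1 was at 2668, 4238 and 2739.7 against 160.4, 135 and 153 (-4.39, SE 0.17, adjusted p = 5.05e-10). Ligand and co-receptor were both higher in the hippocampus. Chl1, a cell adhesion molecule of the L1 family, was at 5237, 7649 and 6080 against 168, 119.6 and 196 (-5.30, SE 0.18, adjusted p = 2.44e-10). Dio2, the deiodinase that makes active thyroid hormone and that the brain expresses mainly in astrocytes, was at 3716, 2631 and 2323 against 55.7, 88.4 and 86.4 (-5.22, SE 0.20, adjusted p = 5.05e-10). Over Sema3c, Chl1 and Dio2, the highest value of an olfactory bulb library was 196 and the lowest of a hippocampus library was 2323. The rule had chosen these genes for large differences without overlap. The remaining genes were Ccdc80, a secreted matrix protein (-5.87), the caveolin Cav1 (-4.53), the nuclear receptor Nr4a3, an immediate-early gene (-4.47), and Bhlhe22, a basic helix-loop-helix factor of excitatory neurons (-4.28).

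The transcription factors of pallial identity were higher in the hippocampus as a group: of 25 tested, 19 were higher in the hippocampus and 3 in the olfactory bulb, with a median log2 difference of -1.64. Nr2f1, a nuclear receptor that sets area identity in the cortex, was at 630, 859 and 652 in the hippocampus and 14.7, 7.04 and 13.6 in the olfactory bulb (-5.85, SE 0.26, adjusted p = 1.63e-09). Its relative Nr2f2 differed by -3.67. Dmrt3, a factor of the medial pallium, had no read in any olfactory bulb library and 51.1, 38.6 and 35.8 in the hippocampus, which was at least 13.7-fold higher when 3 reads per library are taken as the floor. Lhx9, a LIM homeodomain factor, was at 166, 192 and 242 against 1.64, 13.1 and 3.70 (-5.15, SE 0.48), and Prox1, a factor of dentate granule neurons, at 539.8, 551 and 495 against 58.1, 48.2 and 54.3 (-3.28, SE 0.16). The gap was smaller for Emx2 (-0.99) and Emx1 (-0.93), which mark the pallium as a whole, and the call of Emx1 was lost without hippocampus library 2 (limma adjusted p = 0.105) or olfactory bulb library 1 (0.141). The 3 factors higher in the olfactory bulb were Tbr1 (1.20), Bcl11b (2.93) and Meis1 (3.89), of which Tbr1 is also known from mitral cells and Meis1 from bulb interneurons.

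The list of pallial factors also held the nuclear factor I genes Nfia, Nfib and Nfix, which drive the switch of radial glia to astrocytes. They are thus not factors of pallial identity alone, and all were counted among the 19 members higher in the hippocampus. Nfia was read at 12260, 17159 and 10978 in the hippocampus and 2659, 3353 and 3036 in the olfactory bulb (-2.14, SE 0.16, adjusted p = 1.91e-07), and Nfix at 7726, 11860 and 6770.1 against 973, 921 and 914 (-3.19, SE 0.17, adjusted p = 8.28e-09). The 5 regulators tied to the study's theme, Lhx2, Npas3, Sox9, Nfia and the endothelin receptor Ednrb, were all higher in the hippocampus (median -1.25). Npas3 was at 660, 819 and 728 against 118, 109 and 100 (-2.74, SE 0.14), Sox9, a factor needed for glial fate, at 1578, 2203 and 1510.4 against 642, 994 and 909.8 (-1.06, SE 0.18), and Ednrb at 2227, 2315 and 1712 against 897, 1290.4 and 990.1 (-0.98, SE 0.15). None of the 5 overlapped between regions. Over all genes tested, 45.1% did not overlap and 17.2% were called higher in the hippocampus. Lhx2, Npas3 and Nfia are also in the list of pallial factors, and Sox9 is in that of astrocyte genes. The list of 5 comes from what is known of the study, which may have chosen it on these libraries, so it is no independent evidence of its direction.

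Genes of astrocyte function were mostly higher in the hippocampus. Of 23 astrocyte genes tested, 20 were higher in the hippocampus, 1 was higher in the olfactory bulb and 2 were not called, with a median log2 difference of -1.49. Slc1a2, the main astrocyte glutamate transporter of the adult forebrain, was at 12502, 16470 and 12954 in the hippocampus and 4227, 5631 and 4539 in the olfactory bulb (-1.54, SE 0.14, adjusted p = 1.86e-06). Slc1a3, the glutamate transporter of immature astrocytes, differed less, at 9113, 8663 and 8039 against 4718, 7489 and 6196 (-0.51, SE 0.15, adjusted p = 0.0196). The call of Slc1a3 was lost without hippocampus library 1 (0.0783), olfactory bulb library 1 (0.126) or olfactory bulb library 3 (0.0514). Aqp4, the water channel of endfeet, was at 1381, 1510.1 and 1307 against 241, 302 and 327 (-2.28, SE 0.14), and the apolipoprotein Clu at 783, 796 and 561 against 31.1, 48.2 and 40.7 (-4.13, SE 0.20). The potassium channel Kcnj10 (-2.30), the glycolytic enzyme Aldoc (-1.56), Apoe (-1.67) and the connexin gene Gja1 (-0.92) differed in the same direction. The connexin gene Gjb6, the 1 exception, had few reads, at 40.1, 20.1 and 23.5 in the olfactory bulb and 18, 7.72 and 2.56 in the hippocampus (1.72, SE 0.58, adjusted p = 0.0352). Its call was lost in edgeR (adjusted p = 0.0638) and without each library other than hippocampus 1 (0.0513 to 0.152). Glul, glutamine synthetase, was not called (-0.24, SE 0.16, adjusted p = 0.27), but was called without hippocampus library 3 (adjusted p = 0.0298). So Aldh1l1 and Glul, both used as astrocyte markers, were not called while Gfap, Fgfr3 and Clu were 4 or more log2 units apart.

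Radial glia and immature astrocyte genes were also higher in the hippocampus, 12 of 14 tested (median -1.32). Hes1 and Hes5, transcriptional effectors of Notch that keep progenitors undifferentiated, were at 137, 166 and 137 and 98.5, 158 and 158 in the hippocampus, against 14.7, 15.1 and 12.3 and 18, 29.1 and 16.1 in the olfactory bulb (log2 differences -3.29, SE 0.25 and -2.67, SE 0.29). Tnc, a matrix protein of radial glia, was at 16311, 23005 and 14666 against 2305, 3336 and 2923 (-2.64, SE 0.17), and Vim, their intermediate filament, at 3693, 3743 and 3053 against 918, 1151 and 900 (-1.82, SE 0.13). The lipid-binding protein gene Fabp7 differed by -1.20 and Nes by -1.44. Pax6, a factor of both radial glia and bulb interneurons, was the 1 member higher in the olfactory bulb, at 530.5, 694 and 706 against 377, 366 and 408 (0.74, SE 0.14, adjusted p = 0.00113). Sox2, a factor of neural stem cells and astrocytes, was not called (0.16, SE 0.13, adjusted p = 0.375). Of 20 cell cycle genes, 9 were higher in the hippocampus and 11 were not called, with a smaller median difference of -0.40. Those 9 were 5 without hippocampus library 1 and 4 without olfactory bulb library 3, and none of them reached a 2-fold difference. Mki67, a marker of dividing cells, was at 2855, 3224 and 3139.7 against 1608, 2041 and 1850.5 (-0.75, SE 0.12, adjusted p = 0.000279).

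**Figure D3:**
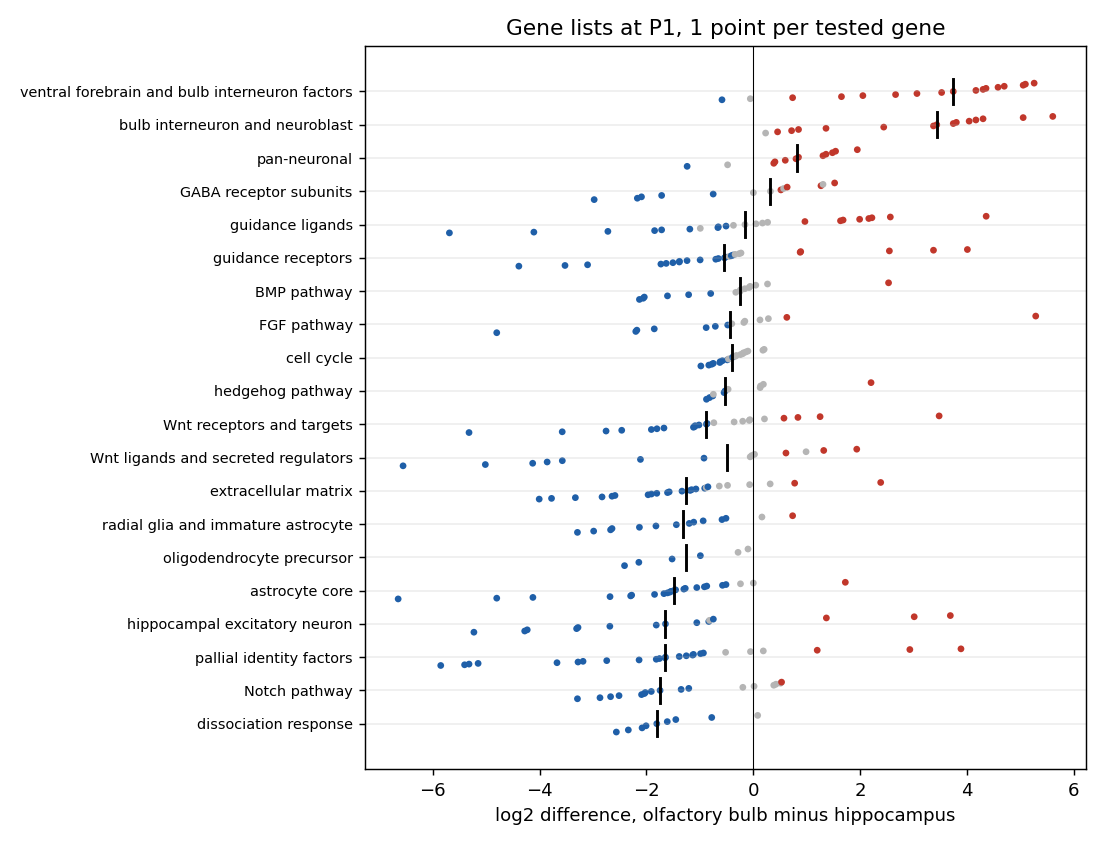
Log2 difference (olfactory bulb minus hippocampus) of each tested member of 20 gene lists, with red for genes called higher in the olfactory bulb, blue for those called higher in the hippocampus, grey for the rest and a black bar at the list's median. The lists of ventral forebrain factors and bulb neuroblast genes lie to the right of 0, and those of astrocyte, radial glia, Notch and pallial genes mostly to the left.

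Notch signalling keeps neighbouring progenitors from differentiating, through membrane ligands, receptors and Hes and Hey factors. Of 17 Notch genes tested, 11 were higher in the hippocampus, 1 in the olfactory bulb and 5 were not called (median -1.75). The receptors Notch1 (-1.21) and Notch2 (-1.91), the modifier Lfng (-2.09), the feedback gene Nrarp (-2.04) and the effectors Hey1 (-2.02) and Hey2 (-2.51) were among the 11. Ligands were split: Dll4 was higher in the hippocampus (-2.87), and Jag1 was the 1 gene in the other direction, at 131, 169.8 and 195 in the olfactory bulb and 109.8, 115 and 114 in the hippocampus (0.53, SE 0.18, adjusted p = 0.0416). Its call was lost in edgeR (adjusted p = 0.0628), in DESeq2 (0.0565) and without hippocampus library 1 or 3 or olfactory bulb library 2 or 3 (0.0677 to 0.186). Every called receptor and effector of the list lay on the hippocampus side.

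Wnt ligands and their amplifiers, the R-spondins, are made by the cortical hem beside the hippocampus. Of 14 tested ligands and secreted regulators, 7 were higher in the hippocampus and 3 in the olfactory bulb (median -0.49). Wnt8b had no read in the olfactory bulb libraries and 145, 103 and 53.7 in those of hippocampus, which was at least 32.9-fold higher. Wnt7b was at 135, 214 and 147 against 10.6, 17.1 and 11.1 (-3.58, SE 0.29, adjusted p = 4.1e-07). The R-spondins Rspo1 (-3.86), Rspo2 (-5.02) and Rspo3 (-4.13) were all higher in the hippocampus, with low counts. Wnt7a, by contrast, was higher in the olfactory bulb, at 386, 349 and 316 against 129, 151 and 139 (1.32, SE 0.15, adjusted p = 1.33e-05), as were Wnt3 (1.94) and the Wnt-binding protein gene Sfrp1 (0.61; limma adjusted p = 0.0554 without olfactory bulb library 2). Of 23 receptors and targets, 13 were higher in the hippocampus and 4 in the olfactory bulb (2 without hippocampus library 3, olfactory bulb library 2 or olfactory bulb library 3; median -0.88). The target Axin2, a feedback inhibitor, was at 325, 262 and 238 against 114, 118 and 153 (-1.09, SE 0.18, adjusted p = 0.000313). The nuclear factor Lef1 was at 128, 131 and 111 against 13.9, 1.01 and 0 (-5.32, SE 0.73), whereas the R-spondin receptor Lgr5 was at 52.4, 33.2 and 39.5 in the olfactory bulb and 3.76, 0 and 10.2 in the hippocampus (3.48, SE 0.72, adjusted p = 0.00206).

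FGF signalling supports astrocyte precursors, and Sprouty and Etv genes are its usual targets. Of 14 FGF pathway genes, 7 were higher in the hippocampus and 2 in the olfactory bulb (median -0.44). Fgfr1 was at 1388, 1419 and 1245 in the hippocampus and 287, 446 and 402 in the olfactory bulb (-1.85, SE 0.16, adjusted p = 6.72e-07). The targets Spry1 (-2.20), Etv4 (-2.18) and Dusp6 (-0.88) differed in the same direction, but the receptor gene Fgfr2 and Spry4, Spred1 and Spred2 were not called. Fgf15, a ligand of the developing brain, was at 83.5, 129.7 and 123 in the olfactory bulb and 3.76, 3.86 and 0 in the hippocampus (5.29, SE 0.57, adjusted p = 7.4e-06). Of 15 BMP pathway genes, 6 were higher in the hippocampus and 1 in the olfactory bulb (median -0.25). They included the BMP targets Id3, at 413, 392 and 385 against 76.1, 122 and 77.8 (-2.13, SE 0.19), and Id1 (-2.04), the receptor gene Bmpr1b (-1.21) and the secreted inhibitor Grem1 (-2.06). Id2, Id4 and Smad7 of the same list were not called. Bambi, a decoy receptor that dampens BMP signals, was the 1 gene in the other direction, at 138, 134 and 129.6 in the olfactory bulb and 25.6, 24.1 and 17.9 in the hippocampus (2.53, SE 0.24, adjusted p = 2.07e-06). In the hedgehog pathway 5 of 11 genes were higher in the hippocampus (3 without hippocampus library 1, olfactory bulb library 1 or olfactory bulb library 3), among them the factor Gli3 (-0.88), and 1 was higher in the olfactory bulb. The ligand Shh had too few reads to be tested.

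Guidance molecules differed in both directions. Of 23 tested guidance ligands, 8 were higher in the olfactory bulb and 9 in the hippocampus (median -0.16). The Slit ligands were split: Slit1 was at 151, 208 and 216 in the olfactory bulb and 47.4, 38.6 and 34.5 in the hippocampus (2.22, SE 0.22), while Slit2 was at 142, 182 and 122 and 1139.7, 978 and 831 (-2.72, SE 0.17) and Slit3 differed by -4.11. The ephrins Efna5 (4.36, SE 0.25) and Efnb2 (2.56, SE 0.13) were higher in the olfactory bulb, with Efna5 at 783, 1089 and 1005 against 64.7, 51.2 and 28.1. Of 25 guidance receptors, 5 were higher in the olfactory bulb and 16 in the hippocampus (median -0.54). Epha4, an ephrin receptor of astrocytes and neurons, was at 6778, 8643 and 6699.8 in the hippocampus against 535, 687 and 696 in the olfactory bulb (-3.52, SE 0.14, adjusted p = 6.39e-10), and Ephb1 differed by -3.10. Ephrin ligands Efna5 and Efnb2 were thus higher in the region where the receptors Epha4 and Ephb1 were lower. The other tested ephrins were mixed: Efnb3 was higher in the olfactory bulb, Efna4 was higher in the hippocampus, and Efna2 and Efnb1 were not called. The netrin receptor Unc5c (4.01) and the semaphorin receptor Plxnc1 (2.55) were higher in the olfactory bulb, together with Robo2.

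Extracellular matrix genes were mostly higher in the hippocampus, 17 of 24 tested against 2 in the olfactory bulb (median -1.26). Sparc, a matrix protein that astrocytes secrete, was at 2461, 1755 and 1974 in the hippocampus and 207, 143 and 109.9 in the olfactory bulb (-3.78, SE 0.20, adjusted p = 8.28e-09). Hapln1, which links hyaluronan to proteoglycans, was at 372, 117 and 252 against 5.73, 16.1 and 22.2 (-4.01, SE 0.45, adjusted p = 1.21e-05), with a wide spread among the hippocampus libraries. The 2 genes in the other direction were Spon1, at 887, 650.2 and 695 against 158, 143 and 123 (2.38, SE 0.16), and the proteoglycan gene Vcan (0.77). With Has2 and Tnc, the hyaluronan synthase, its link protein and tenascin C were all lower in the olfactory bulb.

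Receptors for GABA were of interest because the series targets Gabbr1, a subunit that pairs with the Gabbr2 product to form the GABA-B receptor. Gabbr1 was read at 1364, 1173 and 1096 in the olfactory bulb and at 872, 833 and 824 in the hippocampus, a small difference toward the olfactory bulb (0.52, SE 0.12, adjusted p = 0.00455) with no overlap. Gabbr2 lay the other way, at 28.6, 38.2 and 44.4 in the olfactory bulb and 136, 182 and 192 in the hippocampus (-2.17, SE 0.23, adjusted p = 7.26e-06). The 2 subunits of the GABA-B receptor therefore differed in opposite directions at P1. Of the 13 GABA receptor subunits tested in all, 4 were higher in the olfactory bulb and 5 in the hippocampus (median 0.32). The GABA-A subunits Gabrb1 (-2.98), Gabra4 (-2.09), Gabra2 (-1.72) and Gabrg1 (-0.75) were higher in the hippocampus, and Gabra3 (1.52) was higher in the olfactory bulb. Gabrb1 was at 259, 261 and 185 in the hippocampus against 31.9, 28.1 and 25.9 in the olfactory bulb, while the groups overlapped for Gabrg1. The call of Gabrg1 was lost without hippocampus library 1 or 3 or olfactory bulb library 1 or 3 (limma adjusted p 0.077 to 0.118). Of 9 genes of GABA synthesis, uptake and breakdown, 5 were higher in the olfactory bulb and none was called higher in the hippocampus (1 without hippocampus library 3 or olfactory bulb library 3). The 5 were the neuronal genes Gad1, Gad2 and Slc32a1, the transaminase Abat (1.13, SE 0.15) and the astrocyte transporter Slc6a11, at 1189, 1929 and 1652 against 907, 1457 and 865 (0.58, SE 0.20, adjusted p = 0.0417), whose groups overlapped. The call of Slc6a11 was lost in edgeR (adjusted p = 0.0564) and without hippocampus library 1 or 3 or olfactory bulb library 2 or 3 (0.116 to 0.165).

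Among 21 glutamate receptor genes, 8 were higher in the olfactory bulb and 5 in the hippocampus (median 0.17). Grm5 and Grm3, the metabotropic receptors known from astrocytes, were both higher in the hippocampus, Grm5 at 669.8, 927 and 656 against 87.6, 72.4 and 69.1 (-3.27, SE 0.17, adjusted p = 8.27e-09) and Grm3 at 1036, 929 and 1124 against 125, 123 and 135 (-3.00, SE 0.13, adjusted p = 1.64e-09). Grm8 was at 256, 159 and 152 in the olfactory bulb and 11.3, 2.90 and 5.11 in the hippocampus (4.80, SE 0.40), and Grm4 differed by 3.62. These are metabotropic receptors that neurons carry at their terminals. The kainate subunits were split, with Grik3 higher in the olfactory bulb, as given above, and Grik4 higher in the hippocampus (-3.56).

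Markers of other cell types moved with the regions, and their part in the results above was not tested. Of 12 pan-neuronal genes 10 were higher in the olfactory bulb (6 without hippocampus library 1; median 0.82), whereas Rbfox3, a marker of more mature neurons, was higher in the hippocampus, at 463, 585 and 498 against 215, 252 and 188 (-1.24, SE 0.15). Of 15 hippocampal excitatory neuron genes 11 were higher in the hippocampus and 3 in the olfactory bulb, with a summed level of 9909.8 to 12147 against 3884 to 4808. Zbtb18 was at 3179, 3750.1 and 3170.4 in the hippocampus against 291, 374 and 356 (-3.31, SE 0.13). The 3 excitatory neuron genes higher in the olfactory bulb were Mef2c, Nrgn and Camk2a, with log2 differences of up to 3.69. Of 5 tested Cajal-Retzius neuron genes 2 were higher in each region and 1 was not called (median -0.25). Nhlh2 was at 249.6, 250.1 and 229 in the hippocampus against 3.27, 4.02 and 3.70 (-5.71, SE 0.28), and Reln, their secreted product, differed by -1.21. Cacna2d2, a calcium channel subunit gene, was at 116, 144 and 93.8 in the olfactory bulb against 28.6, 20.3 and 20.4 (2.30, SE 0.26), and Ebf3 differed by 2.30 with groups that overlapped. The call of Ebf3 was lost in DESeq2 (adjusted p = 0.16) and without hippocampus library 1 (0.0533), olfactory bulb library 2 (0.0691) or olfactory bulb library 3 (0.0558). Of 6 tested genes of mitral and tufted neurons, the output cells of the bulb, Tbr1 and Barhl2 were higher in the olfactory bulb and Slc17a7 (-2.69) and Reln in the hippocampus (median 0.05). Slc17a7 fell under the minimum mean count when any 1 of the hippocampus libraries was left out.

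Of 6 tested oligodendrocyte precursor genes 4 were higher in the hippocampus, with Olig2, also found in some astrocytes, at 324, 402 and 290.1 against 58.1, 67.3 and 61.7 (-2.41, SE 0.18, adjusted p = 1.82e-07). Of 5 mature oligodendrocyte genes, 2 were higher in the olfactory bulb. Microglial, endothelial and ependymal lists had summed levels of at most 380.4, 271 and 118 in any of the 6 libraries, with 3, 1 and 1 members called, all higher in the hippocampus. The endothelial count was 2 without hippocampus library 2. The list of mural cells and meningeal fibroblasts had summed levels of 554 to 1343 in the olfactory bulb and 729.7 to 2418 in the hippocampus, with 3 of 9 tested genes higher in the hippocampus (6 without hippocampus library 3). Over all genes tested, 32.3% were called and 17.2% were called higher in the hippocampus, so counts of such short lists are given as description only. The summed levels of choroid plexus genes overlapped and none of 4 was called, but 1 was called higher in the olfactory bulb without hippocampus library 1 or olfactory bulb library 1, and 1 higher in the hippocampus without hippocampus library 2. The lists for olfactory ensheathing cells and blood overlapped in their sums, with Npy the 1 called gene (2.12; limma adjusted p = 0.0579 without hippocampus library 1) and no read of the 4 hemoglobin genes. The ensheathing cell list had 2 genes called higher in the olfactory bulb without hippocampus library 3, olfactory bulb library 2 or olfactory bulb library 3, none there without hippocampus library 1 or olfactory bulb library 1, and 1 higher in the hippocampus without hippocampus library 3. The blood list had 1 gene called higher in the hippocampus without hippocampus library 2. Immediate-early and stress genes that dissociation can raise were higher in the hippocampus in 8 of 9 tested members (median -1.81). Fos was at 429, 626 and 562 against 99, 104 and 69.1 (-2.56, SE 0.19, adjusted p = 2.22e-07) and Egr1 at 1464, 2532 and 1568 against 336, 357 and 372 (-2.34, SE 0.18, adjusted p = 2.22e-07). Nr4a3, named above, belongs to the same kind of gene.

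**Figure D4:**
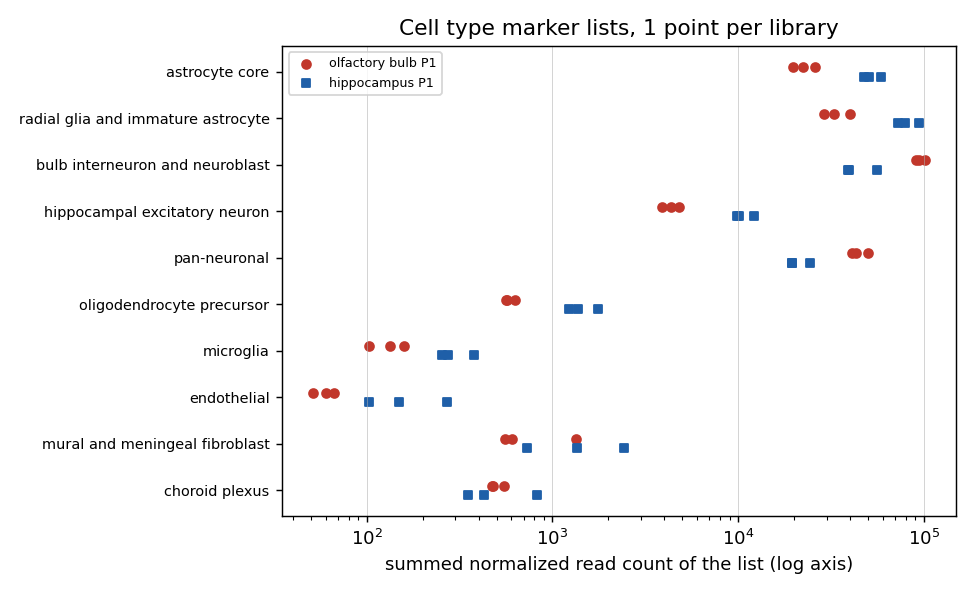
Summed normalized read count (log axis) of 10 lists of cell type markers, 1 point per library, red circles for olfactory bulb P1 and blue squares for hippocampus P1. The pan-neuronal and bulb neuroblast sums were higher in all 3 olfactory bulb libraries, the astrocyte, radial glia and hippocampal excitatory neuron sums were higher in all 3 hippocampus libraries, and the choroid plexus sums overlapped.

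The 3 cortex libraries of P1 give a further region on the same scale, with no test here. Syt6 had a cortex mean of 213, Prokr2 of 337, Grik3 of 439 and Dlx5 of 83.4, each between the means of the other regions. Tfap2e (1.94) and Barhl2 (2.23) had a cortex mean close to that of hippocampus. In the hippocampus group, Gfap (916) and Dio2 (5266) had a higher mean in cortex than in hippocampus, Fgfr3 (611) was near the hippocampus mean, and Nr2f1 (513), Sema3c (525), Has2 (68) and Nrp1 (593) lay between. Aldh1l1 (1299) and Glul (4864) had higher means in cortex than in either other region.

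Libraries of the same regions at P7 and P14 (3 of each) were other libraries than those at P1. Their calls came from 1 limma fit of all 18 libraries, in which each gene's variance is shared with the P1 libraries. The calls at P7 and P14 are therefore not fully independent of those at P1. Of the 1860 genes called higher in the olfactory bulb at P1 and also tested at later ages, 750 (40.3%) were called in the same direction at P7 and 13 (0.699%) in the other; the background over all 11813 genes tested was 9.35% and 10.8%. At P14 the same genes were called in the same direction in 466 cases (25.1%) and in the other in 73 (3.92%), against a background of 12% and 8.21%. Of the 2078 genes called higher in the hippocampus at P1, 919 (44.2%) were called in the same direction at P7 and 26 (1.25%) in the other. At P14 the corresponding numbers were 334 (16.1%) and 233 (11.2%). The share of hippocampus genes called in the opposite direction at P14 was therefore near the background of 12%.

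A change of the regional difference with age was tested as an interaction in the same model, over 12126 genes. It passed the threshold in 185 genes from P1 to P7 (1.53%) and in 1485 genes from P1 to P14 (12.2%). With array weights this order was reversed, at 1316 and 650 genes. The P14 libraries were shallower, with 1498834 to 3295737 reads without Rn45s against 3825820 to 6608728 at P1. The part of depth in these counts was not tested. Gabbr1 had a called interaction at both ages, with a regional log2 difference of 0.52 at P1, -1.64 at P7 and -2.54 at P14 (interactions -2.14, adjusted p = 2.3e-05, and -3.04, adjusted p = 4.57e-08). Its mean in the hippocampus was 843 at P1, 3888 at P7 and 7558 at P14, while in the olfactory bulb it was 1211, 1184 and 1303. Slc1a2 differed by -1.54 at P1, -3.39 at P7 and -2.29 at P14 (interaction at P7 -1.84, adjusted p = 0.000826). Dcx differed by 1.36, 3.48 and 3.36 (interactions 2.13, adjusted p = 0.0247, and 2.01, adjusted p = 0.0086). The P7 interaction of Dcx was not called without hippocampus library 2 (0.0815), olfactory bulb library 2 (0.0777) or olfactory bulb library 3 (0.0585). Dcx and Slc1a2 thus differed more between regions at P7 than at P1, whereas Gabbr1 changed sides.

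Some of the genes with the largest P1 difference kept it. Nr2f1 differed by -4.45 at P7 and -4.68 at P14, Syt6 by 6.30 and 6.72, and Dlx5 by 5.02 and 5.08, with no called interaction at either age, which does not show that these differences were constant. Others narrowed: Gfap differed by -4.01 at P7 and -1.03 at P14, with an olfactory bulb mean of 1413 and a hippocampus mean of 2888 at P14. Tfap2e and Barhl2 had no read in any library of either region at P14. The sign of the Sema3c difference turned, to 0.54 at P7 and 1.46 at P14. Genes picked for a large P1 difference are biased toward a smaller one at other ages, and this selection was not corrected for.

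**Figure D5:**
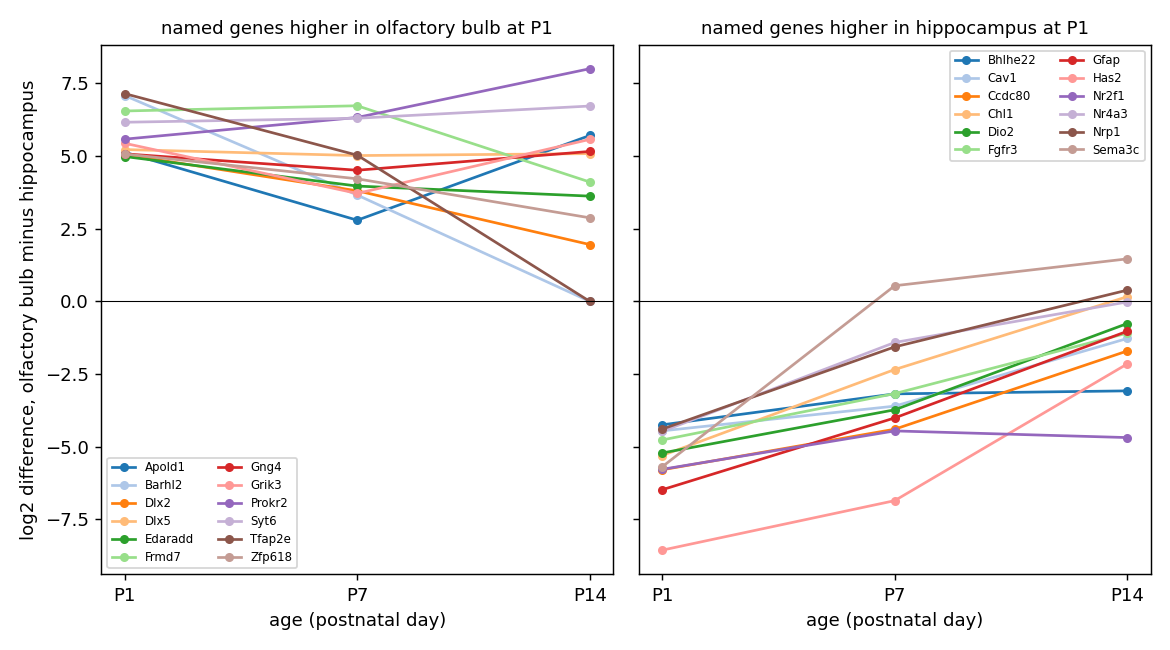
Log2 difference (olfactory bulb minus hippocampus, same model for all 3 ages) of the 24 named genes at P1, P7 and P14, 1 line per gene. Left, genes higher in the olfactory bulb at P1; right, genes higher in the hippocampus at P1; the genes were chosen at P1, and Tfap2e and Barhl2 had no read at P14.

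With 6 libraries, the count of called genes moved with the library left out. It was 3046 to 4487 when each of the 6 libraries was left out in turn, and the calls toward the olfactory bulb were 1320 to 2314. The count was 1528, with 536 higher in the olfactory bulb and 992 in the hippocampus, when libraries of P7 and P14 were put in the same fit.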

How the data were processed

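RNA of dissociated tissue, labelled astrocyte, was made into libraries with the Trio RNA-seq kit, per the labels' protocols. STAR 2.5.0a, DESeq2 1.20.0, FastQC, MultiQC and the build mm10 are named, with no role or order, per the submitters' processing notes; the counter, annotation and strand setting are not given in the sources used here. The deposited values are a normalized signal per gene, gene counts divided by 1 factor per library, which the authors scaled separately for each region. Division by the smallest positive value of a library gave whole reads for 100% of values (tolerance 0.01). Tables were joined by row order over 24421 symbols, of which 27 damaged ones were restored from it, and 0 columns lay outside the samples. Rn45s was left out, and the 6 libraries were rescaled together by median-ratio size factors.

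Genes with a mean of at least 10 were tested with limma 3.58.1 (R 4.3.3, trend) on log2(value + 1), with Benjamini-Hochberg adjustment at 0.05. The script was tested on simulated data. The rule for named genes took 12 per direction, the largest log2 differences among called genes whose mean was at or above the median and whose groups did not overlap, without predicted, numbered or sex-linked genes. Members of gene lists were added. The comparison, rule and lists were chosen with earlier results of these data known, and the motifs and the lists of the closing section after seeing the values here. A gene can be in more than 1 list. For a gene without reads in a region, folds take 3 reads per library as the floor, and list medians with Dmrt3 and Wnt8b at that bound were the same. Alternatives were other pseudocounts, filters, scalings, variance models and libraries in the fit, a Ddx3y covariate, each library left out, and count tests on the recovered whole reads (edgeR 4.0.16, 4098 genes called; DESeq2 1.42.0, 3966). Interactions used the 18 libraries of both regions at P1, P7 and P14. The P28 libraries were not used here, and some genes of the lists are counted but not reported here by name.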

Additional observations from a re-analysis of the deposited data

Results flagged for a closer look

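Among the 24 genes named by the rule of largest P1 difference, 13 had a regional difference that changed with age by the test of the difference itself, the region by age interaction of limma in 18 libraries of both regions, with Benjamini-Hochberg adjustment over 12126 genes. Over all 12126 genes, 1.53% had a called interaction at P7 and 12.2% at P14, and the count of 13 takes both ages together. A positive value means that the log2 difference, olfactory bulb minus hippocampus, was larger than at P1. These genes were chosen for a large P1 difference, so a smaller one at other ages is favoured by the choice itself. Outlying libraries were not looked for, since every group had 3.

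From P1 to P7, 5 genes had a called interaction. Among genes higher in the hippocampus at P1, Sema3c, the secreted semaphorin, had the largest change (6.23, SE 0.63, adjusted p = 2.63e-05). Its estimated difference at P7 was small and of the other sign, and this p tests the change from P1, not that sign. The gap narrowed for its co-receptor gene Nrp1 (2.83, SE 0.33, adjusted p = 0.000122), the adhesion gene Chl1 (2.96, SE 0.40, adjusted p = 0.000552) and the immediate-early gene Nr4a3 (3.06, SE 0.50, adjusted p = 0.00279). For Barhl2, higher in the olfactory bulb at P1, the difference fell by 3.42 (SE 0.80, adjusted p = 0.0325). That call of Barhl2 was lost in edgeR (adjusted p = 0.0542), with a pseudocount of 0.1 (0.257) and without each of the 6 P1 libraries (0.054 to 0.14).

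From P1 to P14 the difference moved toward the olfactory bulb in 10 genes of the hippocampus group. They were Sema3c (7.15, SE 0.63, adjusted p = 6.99e-07), Gfap (5.45, SE 0.80, adjusted p = 0.000162), Chl1 (5.46, adjusted p = 7.82e-08), Nrp1 (4.78, adjusted p = 4.57e-08), Nr4a3 (4.45, adjusted p = 1.18e-05), Dio2 (4.45, adjusted p = 2.84e-05), Ccdc80 (4.09, adjusted p = 6.85e-05), Fgfr3 (3.67, adjusted p = 3.31e-05), Cav1 (3.18, adjusted p = 0.00118) and Has2 (6.40, SE 1.57, adjusted p = 0.0111). The call of Cav1 was lost with array weights (adjusted p = 0.0856). Has2, with 1 read in the olfactory bulb at P1 and none there at P14, depended on the test: edgeR gave 2.33 (adjusted p = 0.968) and DESeq2 gave -9.45 (adjusted p = 0.00604).

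In the olfactory bulb group, Tfap2e (-7.15, SE 0.87, adjusted p = 2.81e-05) and Barhl2 (-7.08, SE 0.80, adjusted p = 1.18e-05) changed in the opposite sense at P14, where neither had a read in either region. In edgeR both had an adjusted p of 1. Prokr2, the prokineticin receptor gene, had a larger difference at P14 than at P1 (2.42, SE 0.48, adjusted p = 0.00235), with means of 485 in the olfactory bulb and 0 in the hippocampus. With a pseudocount of 8 it was -0.31 (adjusted p = 0.706), and the call was also lost with array weights (0.0517).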

How the results depend on the processing

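The 24 genes with the largest differences kept direction and call under all 23 other settings (552 of 552). Of 163 named genes, 132 did so where a setting gave them a value, and calls were lost in 95 gene and setting pairs and gained in 4. Those lost when a library was left out, or in edgeR or DESeq2, stand beside the genes. In the fit with P7 and P14, Gabra3, Mki67, Pax6, Rbfox3, Reln, Tbr1, Vcan, Ptrf, Slc17a7, Ebf3 and Amotl2 were not called. Emx1, Gabrg1, Jag1, Npy, Slc1a3 and Slc6a11 also lost their calls in that fit. Without the trend, Gli3, Ebf3, Emx1, Gabrg1, Gjb6, Jag1, Sfrp1, Slc1a3 and Slc6a11 were not called. Aldh1l1, which differed by 0.0003, changed sign: -0.00391 (TMM), -0.0211 (quantile), -0.0690 (total reads), -0.0972 (the authors' scaling), -0.0479 (edgeR), -0.0168 (DESeq2), -0.118 (thinned reads), -0.0101 (P7 and P14 added) and -0.0634 to 0.0988 (1 library left out). Thrb, at -0.24, was at 0.0327 with quantile normalization.

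The number of called genes was 4098 in edgeR and 3966 in DESeq2, which shared 3871 and 3857 with limma, all in 1 direction each. It was 1528 (536 higher in the olfactory bulb, 992 in the hippocampus) with P7 and P14 in the fit, of which 1516 were shared, and 1981 (696 and 1285) at 2-fold or more. With a minimum mean of 100, 1522 were higher in the olfactory bulb and 1239 in the hippocampus, with fewer genes tested. Without 1 library it was 3046 to 4487, with 1320 to 2314 higher in the olfactory bulb and 1682 to 2173 in the hippocampus. The share higher in the olfactory bulb was 46.8%. It was 35.1% with P7 and P14 in the fit and 37.7% with the authors' scaling, and over 50% at a minimum mean of 100 (55.1%), without hippocampus library 2 (51.6%) and with array weights (50.1%). P7 interactions (185) numbered 504 in DESeq2, 1316 with array weights and 119 to 150 without 1 library; P14 interactions (1485) numbered 966 at a minimum mean of 100, 2325 in DESeq2, 650 with array weights and 1047 to 1148 without 1 library. Where not stated, the cause was not tested. Array weights ranged from 0.42 to 1.76 over the P1 libraries.

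List counts moved by over 1.5 times in 154 of 1564 cases. With P7 and P14 in the fit, 0 cell cycle, 5 hippocampal excitatory neuron, 8 guidance receptor and 3 dissociation genes were called higher in the hippocampus (9, 11, 16 and 8 otherwise), and 3 pan-neuronal genes in the olfactory bulb (10 otherwise). No paired analysis was possible because the labels give the P1 libraries no replicate numbers. Depth limits Tfap2e, Barhl2, Gfap, Has2, Dmrt3 and Wnt8b, which had few or no reads in 1 region. With the Ddx3y level as a covariate 3877 genes were called.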

Other observations

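The 7 gene lists in this section were put together after the values were seen, so their counts describe these libraries and support nothing. Thyroid hormone genes were one such list, made because Dio2 was among the largest differences. Of 11 tested, 5 were higher in the hippocampus and none in the olfactory bulb (median log2 difference -0.64). Slco1c1, which carries thyroid hormone into the brain, was at 1369.7, 1136 and 1163 in the hippocampus libraries and 93.3, 226 and 211 in those of the olfactory bulb (-2.88, SE 0.25, adjusted p = 1.1e-06). The cytosolic hormone-binding protein gene Crym (-4.23) and the hormone-responsive gene Thrsp (-3.88) differed in the same direction. The receptor genes Thra (-0.32, SE 0.15, adjusted p = 0.132) and Thrb (-0.24, SE 0.34, adjusted p = 0.64) were not called, though Thra was called with scaling to total reads (adjusted p = 0.0443) and with the authors' scaling (0.0426). Of 18 genes of sterol synthesis and uptake, 14 were higher in the hippocampus and none in the olfactory bulb, with small differences (median -0.65). Idi1 (-1.06, SE 0.14), Hmgcs1 (-0.96, SE 0.12) and Sqle (-0.94, SE 0.12) were among them. Of 10 genes of glycogen turnover 5 were higher in the hippocampus (median -0.62), led by Ppp1r3c, which targets a phosphatase to glycogen, at 566, 411 and 391 against 36, 46.2 and 24.7 (-3.67, SE 0.23, adjusted p = 4.5e-08).

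Caveolae are membrane pits built from caveolins and cavins. Beside Cav1, Cav2 was at 265, 182 and 194 in the hippocampus and 11.5, 10.1 and 4.94 in the olfactory bulb (-4.50, SE 0.32, adjusted p = 1.27e-07), and the cavin genes Ptrf (-2.26; limma adjusted p = 0.0503 without olfactory bulb library 3) and Prkcdbp (-2.09) were also higher in the hippocampus, so that 4 of 5 tested genes of the list were called in that direction. Endothelial cells and fibroblasts also carry caveolae, and the summed levels of their marker lists stand in the report. In the list of YAP and TEAD factors and targets, 7 of 11 were higher in the hippocampus and 1, Amotl2 (0.88), in the olfactory bulb. The secreted matrix proteins Cyr61 (-3.36, SE 0.21) and Ctgf (-3.28, SE 0.53) and the coactivators Wwtr1 (-1.64, SE 0.15) and Yap1 (-1.27, SE 0.16) were among the 7. Adhesion molecules of the immunoglobulin class went both ways, with 8 of 16 higher in the olfactory bulb and 5 in the hippocampus. Cntn4, a contactin, was at 153, 103 and 122 in the olfactory bulb against 8.27, 9.66 and 14.1 (3.46, SE 0.30, adjusted p = 9.53e-07), whereas Opcml differed by -2.60 and Lsamp by -1.44.

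The receptors for prokineticins lay on opposite sides: Prokr1 was at 183, 278 and 127 in the hippocampus and 9.82, 25.1 and 13.6 in the olfactory bulb (-3.55, SE 0.35, adjusted p = 3.35e-06), the reverse of Prokr2. Of 13 neuropeptide and peptide receptor genes 4 were higher in the olfactory bulb and 5 in the hippocampus. Cck (-3.64) and Pdyn (-2.89), both neuropeptide precursor genes, were higher in the hippocampus.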
